A study of Mus musculus with 15 samples.

Results

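The oligoadenylate synthetase family was followed as 7 genes taken by name (Oas1a, Oas1b, Oas1g, Oas2, Oas3, Oasl1 and Oasl2) out of the 24015 genes counted in every library. The RNA came from MEFs of strain c57bl/6, that is fibroblasts cultured from mouse embryos. The KO cells are labelled Nsd2(-/-) and the WT cells Nsd2(+/+); NSD2 is a histone methyltransferase, and the design asks how its loss bears on a first and a repeated interferon response. Cells of both genotypes were either pretreated, which means 3 h of interferon beta, a wash and 24 h without it, or naive, which means no earlier interferon. Each kind was taken at 2 h of interferon beta (100 units per ml) and at 0 h. This gives 8 groups in 15 libraries: KO pretreated 2 h, KO pretreated 0 h, KO naive 2 h and KO naive 0 h, and the same 4 in WT. Every group has 2 libraries except KO naive 2 h, which has 1. How the Nsd2 allele was made, and whether each genotype is 1 line or several, is not given in the sources used here. The labels number the libraries of a group without saying that they stem from different animals or cultures. A p-value here thus reflects only how much libraries vary, and that variation may be technical.

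Oligoadenylate synthetases are enzymes that bind double-stranded RNA, a sign of virus infection, and join ATP into short oligoadenylate chains. These chains act as messengers that set off the breakdown of viral and cellular RNA. Type I interferon, sensed through the receptor subunits IFNAR1 and IFNAR2, raises the genes through a transcription factor complex that holds STAT2 and IRF9 and binds interferon-stimulated response elements. In mouse, Oas1a, Oas1g, Oas2 and Oas3 encode active synthetases. Oas1b is cut short by a stop codon in common laboratory strains, and GENCODE M21 lists it as a polymorphic pseudogene. Oasl1 has lost synthetase activity and represses translation of the transcription factor IRF7 in mouse, whereas mouse Oasl2 is an active enzyme.

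All 12 Oas genes of the mouse genome that the files list lie on chromosome 5. RefSeq promoter windows of build GRCm38.p6, running from 250 bases before to 50 bases after each start, were at hand for 5 of the 7 genes (Oas1a, Oas1g, Oas3, Oasl1 and Oasl2). They were searched on both strands for GAAA followed by any 2 bases and GAAA again, the core of the interferon-stimulated response element. The core was found in 3 of these 5 windows, against 3.44% of 32851 RefSeq windows. In Oas1a the matches begin 20 and 14 bases before the start and overlap, in Oas1g they begin 18 and 12 bases before it and overlap, and in Oas3 the match begins 75 bases before it. No match to these letters was found in the Oasl1 and Oasl2 windows. TTCNNNGAA, the gamma-activated site, occurs in 8.30% of all windows and, of the 5, in Oas1a alone, as TTCAAAGAA, 98 bases before the start. The 250 bases before the start are shown 5′ to 3′ along the gene's strand, with core matches in capitals. Oas1a (chr5:120907526-120907775, minus strand) and Oas1g (chr5:120887614-120887863, minus strand) are shown because they are near copies, identical at 88.8% of aligned bases of the full windows. Oas3 (chr5:120777660-120777909, minus strand) holds the third match, and Oasl1 (chr5:114922990-114923239, plus strand) is the gene that rose by the most in naive KO cells among those with a count at 0 h.
Oas1a: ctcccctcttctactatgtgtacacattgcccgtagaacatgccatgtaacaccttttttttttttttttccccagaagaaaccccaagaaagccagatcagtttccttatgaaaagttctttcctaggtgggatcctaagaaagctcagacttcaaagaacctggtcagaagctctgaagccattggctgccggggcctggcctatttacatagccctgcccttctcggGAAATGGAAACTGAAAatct
Oas1g: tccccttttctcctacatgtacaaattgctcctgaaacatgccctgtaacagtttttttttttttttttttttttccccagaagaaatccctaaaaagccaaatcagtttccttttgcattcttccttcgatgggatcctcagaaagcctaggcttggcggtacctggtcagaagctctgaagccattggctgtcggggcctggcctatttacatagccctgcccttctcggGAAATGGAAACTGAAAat
Oas3: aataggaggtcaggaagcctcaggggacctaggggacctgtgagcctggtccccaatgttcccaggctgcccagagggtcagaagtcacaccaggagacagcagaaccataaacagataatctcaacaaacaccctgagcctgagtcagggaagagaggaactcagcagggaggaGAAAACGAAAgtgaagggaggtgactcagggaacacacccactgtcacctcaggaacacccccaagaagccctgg
Oasl1: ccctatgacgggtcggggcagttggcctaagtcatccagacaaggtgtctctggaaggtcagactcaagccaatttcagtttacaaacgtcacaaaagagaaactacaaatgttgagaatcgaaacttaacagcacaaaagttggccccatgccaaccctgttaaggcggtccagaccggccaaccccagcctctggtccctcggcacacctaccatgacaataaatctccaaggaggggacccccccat

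The libraries held 17170845 to 44116418 counts in genes. The ribosomal transcript Rn45s and Lars2 took 10.6% to 29.4% of them, and the share was lowest in WT naive 0 h replicate 1, WT pretreated 2 h replicate 1 and KO pretreated 0 h replicate 2. Levels below are counts scaled to the gene counts of the library (CPM). Changes are fitted log2 changes from edgeR's quasi-likelihood test, called at an adjusted p below 0.05 over 13802 genes. The SE after each ± was derived from that test, as the size of the change over the square root of its F statistic. It is approximate, and the SE of a difference need not follow from those of its parts. The targeted gene, listed as Whsc1, had 91.5 to 124 CPM in KO and 106 to 151 CPM in WT libraries, and its log2 change in KO against WT lay between -0.18 and -0.39 in the 4 settings. Reads were summed over the gene, so this is no test of a partial deletion. Fibroblast markers summed to 7296 to 9321 CPM in KO and 9896 to 15653 CPM in WT libraries, but defining ones differed by genotype, in both directions. Thy1 had 29.6 to 33.9 CPM in KO against 0.0474 to 0.175 CPM in WT, and Pdgfra had 37.7 to 124 CPM in KO against 4.49 to 7.40 CPM in WT. Fap was near 0 in both genotypes, with 0 to 0.172 CPM in KO and 0 counts in all WT libraries. Dcn had 1.17 to 4.76 CPM in KO against 16.3 to 20.6 CPM in WT, and Col1a2 2381 to 3421 CPM in KO against 3697 to 7906 CPM in WT. The 9 macrophage and blood markers in the files summed to 5.27 to 9.07 CPM in KO and 13.7 to 21.2 CPM in WT, with Tyrobp at 0 throughout and Ptprc at 0.0737 CPM or less. The 5 endothelial markers reached 1.34 CPM in KO and 1.78 CPM in WT, and the 5 epithelial ones 5.03 CPM in KO and 3.72 CPM in WT. The part of these differences in the results below was not tested, and in such bulk RNA fewer cells of a type and less RNA per cell cannot be told apart.

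The family was scarce in untreated naive cells of both genotypes and abundant in KO cells at 2 h. Summed over the 7 genes it reached 258.0 and 259.0 CPM in KO pretreated 2 h, 22.4 and 30.6 CPM in KO pretreated 0 h, 148 CPM in KO naive 2 h, and 4.09 and 3.01 CPM in KO naive 0 h. In WT the sum was 29.0 and 25.5 CPM in pretreated 2 h, 1.66 and 2.41 CPM in pretreated 0 h, 4.35 and 3.37 CPM in naive 2 h, and 0.673 and 0.990 CPM in naive 0 h. Every KO library thus lay above both WT libraries of the same treatment, and in both genotypes the pretreated cells at 2 h stood highest.

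**Figure D1:**
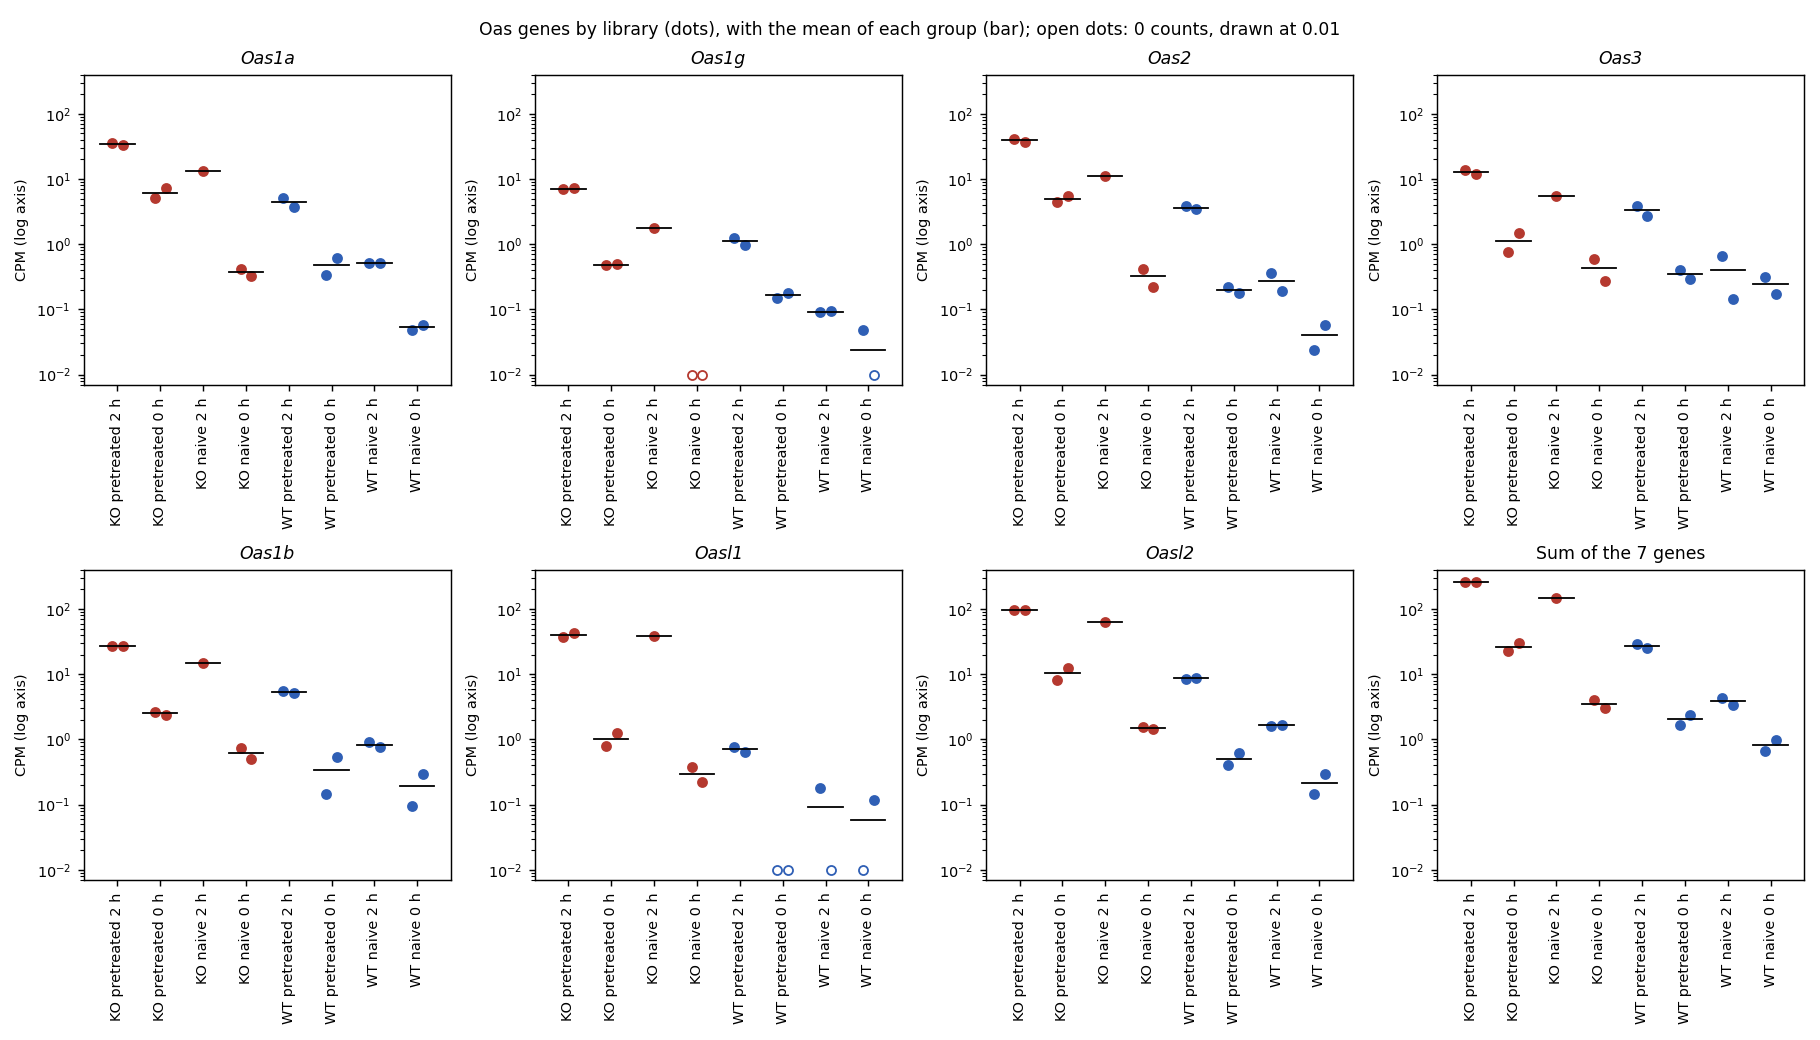
CPM on a log axis of each Oas gene and of their sum in every library (dots; KO red, WT blue), with group means as bars and libraries with 0 counts as open dots drawn at 0.01. The 2 libraries of KO pretreated 2 h sit at the top of every panel, except for Oasl1, where the KO naive 2 h library at 38.7 CPM lies between them.

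Among the synthetases, Oas1a had 35.7 and 33.8 CPM in KO pretreated 2 h, 5.09 and 7.24 CPM in KO pretreated 0 h, 13.3 CPM in KO naive 2 h, and 0.417 and 0.324 CPM in KO naive 0 h. In WT it had 5.19 and 3.77 CPM in pretreated 2 h, 0.332 and 0.612 CPM in pretreated 0 h, 0.514 and 0.522 CPM in naive 2 h, and 0.0481 and 0.0582 CPM in naive 0 h, where both libraries together hold 3 counts. The 3 highest group means were all KO; the third of them, KO pretreated 0 h, overlapped WT pretreated 2 h in its library values, and WT naive 2 h, WT pretreated 0 h and KO naive 0 h formed a run whose neighbours overlap. Oas1g, its near copy, had 6.98 and 7.29 CPM in KO pretreated 2 h, 0.473 and 0.490 CPM in KO pretreated 0 h, 1.78 CPM in KO naive 2 h and 0 counts in both KO naive 0 h libraries. Its WT values were 1.24 and 0.981 CPM in pretreated 2 h, 0.147 and 0.180 CPM in pretreated 0 h, 0.0907 and 0.0948 CPM in naive 2 h, and 0.0481 and 0 CPM in naive 0 h. Of the 50-base windows of Oas1a exons, 57.6% also occur in Oas1g, and of those of Oas1g 45.2% occur in Oas1a, so the split of reads between the pair is uncertain. Reads that align to several places are summed apart from the genes, so the levels of both may also be too low. For the other 5 genes the share found in any other family gene is 1.17% or less.

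Oas2, which encodes a larger synthetase, had 40.9 and 37.0 CPM in KO pretreated 2 h, 4.39 and 5.46 CPM in KO pretreated 0 h, 11.1 CPM in KO naive 2 h, and 0.417 and 0.224 CPM in KO naive 0 h. Its WT values were 3.84 and 3.43 CPM in pretreated 2 h, 0.221 and 0.180 CPM in pretreated 0 h, 0.363 and 0.190 CPM in naive 2 h, and 0.0240 and 0.0582 CPM in naive 0 h. KO pretreated 0 h lay above WT pretreated 2 h without overlap, while KO naive 0 h, WT naive 2 h and WT pretreated 0 h overlapped as neighbours in the order. Oas3, the largest synthetase, had 13.6 and 11.7 CPM in KO pretreated 2 h, 0.751 and 1.47 CPM in KO pretreated 0 h, 5.44 CPM in KO naive 2 h, and 0.584 and 0.274 CPM in KO naive 0 h. Its WT values were 3.87 and 2.75 CPM in pretreated 2 h, 0.405 and 0.288 CPM in pretreated 0 h, 0.665 and 0.142 CPM in naive 2 h, and 0.312 and 0.175 CPM in naive 0 h. Oas3 had the narrowest fold range between its highest and lowest group among the 7 genes, and its 4 lowest groups, among them KO naive 0 h, overlapped from neighbour to neighbour.

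The truncated Oas1b had 26.9 and 27.1 CPM in KO pretreated 2 h, 2.67 and 2.34 CPM in KO pretreated 0 h, 14.8 CPM in KO naive 2 h, and 0.751 and 0.498 CPM in KO naive 0 h. In WT it had 5.63 and 5.09 CPM in pretreated 2 h, 0.147 and 0.540 CPM in pretreated 0 h, 0.907 and 0.759 CPM in naive 2 h, and 0.0962 and 0.291 CPM in naive 0 h. Unlike Oas1a and Oas2, its WT pretreated 2 h libraries lay above KO pretreated 0 h without overlap. Oasl1, the repressor of IRF7 translation, had 37.7 and 43.6 CPM in KO pretreated 2 h, 0.806 and 1.26 CPM in KO pretreated 0 h, 38.7 CPM in KO naive 2 h, and 0.376 and 0.224 CPM in KO naive 0 h. Its WT libraries had 0.767 and 0.641 CPM in pretreated 2 h, 0 counts in both pretreated 0 h libraries, 0.181 and 0 CPM in naive 2 h, and 0 and 0.116 CPM in naive 0 h. It thus had 6 counts or fewer in 6 of 8 WT libraries and above every other Oas gene except Oasl2 in the KO naive 2 h library. Oasl2, the active Oas-like enzyme and the most counted of the 7 genes, had 96.3 and 98.5 CPM in KO pretreated 2 h, 8.26 and 12.3 CPM in KO pretreated 0 h, 63.5 CPM in KO naive 2 h, and 1.54 and 1.47 CPM in KO naive 0 h. Its WT values were 8.44 and 8.86 CPM in pretreated 2 h, 0.405 and 0.612 CPM in pretreated 0 h, 1.63 and 1.66 CPM in naive 2 h, and 0.144 and 0.291 CPM in naive 0 h. For Oasl2 the naive KO cells before interferon were thus close to the WT cells after 2 h of it, just below them and without overlap.

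All 7 genes passed the filter on low counts, but Oas1g reached its cutoff of 0.350 CPM in 5 KO and 2 WT libraries and Oasl1 in 6 KO and 2 WT libraries. Their passing therefore rests mainly on the groups in which they are high.

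The first interferon response raised the whole family in KO cells. In naive KO cells, 2 h of interferon beta raised 7 of 7 genes, where 19.1% of the 13802 genes tested were called higher; this rests on a single 2 h library, which the fit assumes to vary like the other groups. Their median log2 change was 5.41, or 5.40 with Oas1g at its lower bound, against -0.01 for all genes tested. Oasl1 rose by the most among genes with a count at 0 h, with a log2 change of 7.30 ± 0.22 (edgeR adjusted p = 1.27e-21). Oasl2 changed by 5.62 ± 0.13, Oas2 by 5.41 ± 0.23, Oas1a by 5.40 ± 0.22, Oas1b by 4.84 ± 0.22 and Oas3 by 4.0 ± 0.33. Oas1g, at 52 counts against 0, was at least 38.0-fold higher at 2 h, taking 3 counts over the 0 h group as the floor.

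In naive WT cells 4 of 7 genes rose at 2 h, where 15% of all genes tested were called higher, and their median log2 change was 2.72 against -0.02 for all genes. Oasl2 changed by 3.39 ± 0.39 (edgeR adjusted p = 4.6e-08) and Oas1b by 2.72 ± 0.50 (edgeR adjusted p = 9.05e-05). Oas1a, with 28 counts over both 2 h libraries against 3 over both 0 h libraries, was 10.1-fold higher with a 95% exact interval of 3.13 to 52.1 (edgeR adjusted p = 8.59e-05). Oas2, at 16 against 2 counts, was 8.68-fold higher with an interval of 2.04 to 77.8 (edgeR adjusted p = 0.00183). These intervals, and all floors, cover counting error only. Not called were Oas3 with 1.04 ± 0.57, Oas1g with a ratio of 2.71 (0.444 to 28.5) and Oasl1 with a ratio of 3.26 (0.582 to 33.0). At these counts a change could not have been detected for Oas1g and Oasl1 unless it was large. Without WT naive 0 h replicate 1, the library lowest in Rn45s and Lars2, Oas1b (1.62, edgeR adjusted p = 0.0773) and Oas2 (2.35, edgeR adjusted p = 0.144) were no longer called and Oasl2 stood at 2.57. Oas2 was also lost without WT naive 2 h replicate 1 (2.59, edgeR adjusted p = 0.101), Oas1b moved to 3.45 without WT naive 0 h replicate 2, and Oas3 was called without WT naive 2 h replicate 2 (1.58, edgeR adjusted p = 0.034).

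The difference between the genotypes in this first response was tested directly. It was called for 3 of 7 genes, all rising more in KO, where 8.46% of all genes were called in that direction. The log2 change of Oas3 exceeded that in WT by 2.96 ± 0.74 (edgeR adjusted p = 0.00541) and that of Oasl2 did so by 2.22 ± 0.64 (edgeR adjusted p = 0.015). Oas1g was also called (edgeR adjusted p = 0.0152), with a fitted difference of 7.28 ± 2.08 that depends on the prior count, since KO naive 0 h has no Oas1g counts. The estimates for Oasl1 (5.44 ± 2.02, edgeR adjusted p = 0.0687), Oas2 (2.17 ± 1.40, edgeR adjusted p = 0.341), Oas1b (2.12 ± 0.76, edgeR adjusted p = 0.0565) and Oas1a (1.89 ± 1.14, edgeR adjusted p = 0.308) were positive too and did not pass. For Oas1a, Oas2 and Oasl1 the WT naive 0 h group holds 2 or 3 counts, and for Oasl1 the WT naive 2 h libraries hold 6 and 0. Oas3 lost its call without WT naive 0 h replicate 1 (2.53, edgeR adjusted p = 0.277) and moved to 4.64 without WT naive 2 h replicate 1; its WT libraries at 2 h differ widely, at 22 and 3 counts. Oasl2 lost it without WT naive 0 h replicate 2 (1.78, edgeR adjusted p = 0.166) and moved to 3.04 without WT naive 0 h replicate 1. Oas1g lost it when WT naive 0 h replicate 1 was left out (edgeR adjusted p = 1.0) and when KO naive 0 h replicate 2 was (edgeR adjusted p = 0.057). Oasl1 was called without WT naive 0 h replicate 1 (edgeR adjusted p = 0.0181) or WT naive 2 h replicate 1 (edgeR adjusted p = 0.0186), and Oas1b without any 1 of 4 libraries, with adjusted p-values from edgeR of 0.0315 to 0.0433.

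**Figure D2:**
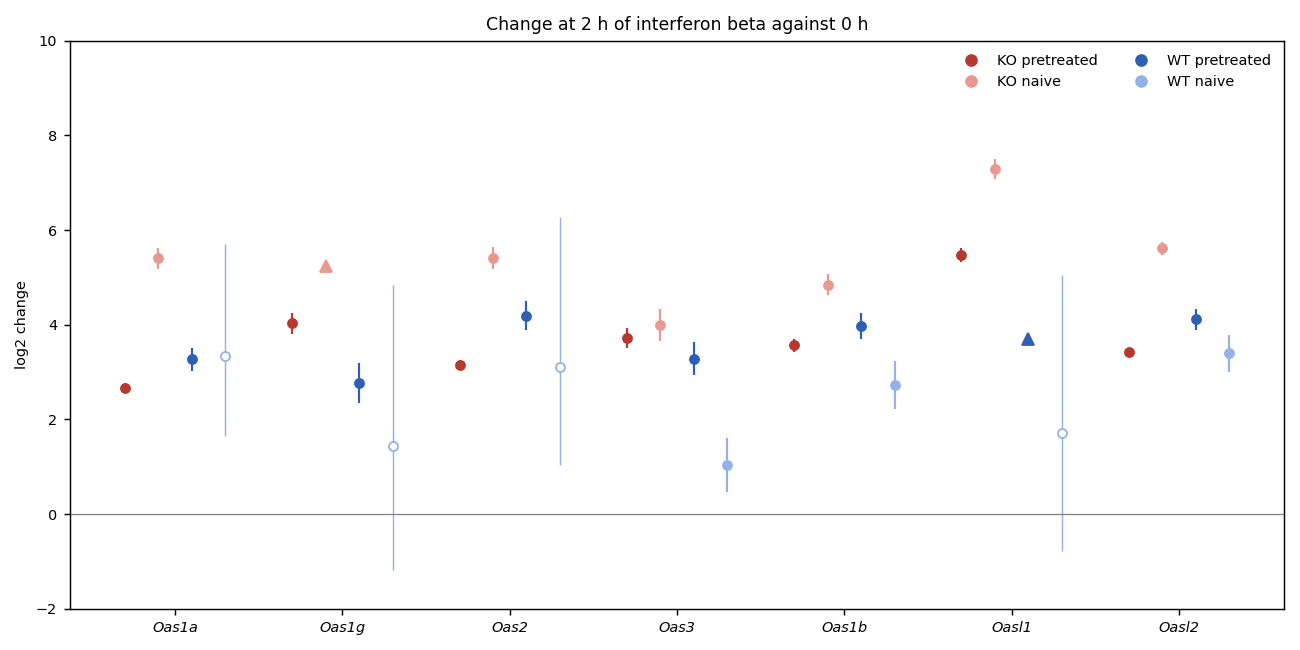
Log2 change at 2 h of interferon beta against 0 h for each Oas gene in KO pretreated, KO naive, WT pretreated and WT naive cells. Filled dots with lines are fitted changes ± SE, open dots with thin lines are ratios of summed counts with their 95% counting interval where 0 h holds 1 to 3 counts, and triangles are lower bounds where it holds none. In KO the naive change of Oasl1, at 7.30, stands above its pretreated change of 5.47, and in WT the naive changes carry the widest errors.

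Pretreated KO cells still carried more of every Oas transcript 24 h after the wash than naive KO cells did. All 7 genes were higher in KO pretreated 0 h than in KO naive 0 h, where 11.1% of all genes tested were called higher, and their median log2 change was 2.77 against -0.01 for all genes. Oas1a stood out with 4.08 ± 0.23 (edgeR adjusted p = 6.61e-14) and Oas2 with 4.04 ± 0.24 (edgeR adjusted p = 2.52e-13). Oasl2 changed by 2.77 ± 0.16, Oas1b by 2.10 ± 0.27, Oasl1 by 1.85 ± 0.42 and Oas3 by 1.47 ± 0.41 (edgeR adjusted p = 0.00887), and Oas1g was at least 10.3-fold higher. Oas3 was not called without KO naive 0 h replicate 2 (0.88, edgeR adjusted p = 0.267), without KO pretreated 0 h replicate 2 (1.04, edgeR adjusted p = 0.18) or by DESeq2 (1.41, adjusted p = 0.0679), and Oasl1 was not called without KO naive 0 h replicate 2 (1.43, edgeR adjusted p = 0.0826).

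Set against the level that naive KO cells reached at 2 h, the level left 24 h after the wash differed greatly between the genes. Mean CPM in KO pretreated 0 h was 46.5% of that in KO naive 2 h for Oas1a and 44.5% for Oas2, then 27.0% for Oas1g, 20.4% for Oas3, 16.9% for Oas1b and 16.2% for Oasl2. For Oasl1 it was 2.67%, or 65 counts in 2 libraries against 1129 counts in 1. Oasl1 thus had the highest CPM after Oasl2 in naive KO cells at 2 h and the smallest share left 24 h after the wash. The comparison is between cells 2 h into interferon and cells washed after 3 h of it, so the peak before the wash was not measured. The level before any interferon was not subtracted, so each share includes it. KO naive 0 h had a mean of 0.429 CPM for Oas3, 0.625 CPM for Oas1b and 1.51 CPM for Oasl2. The order of these close shares may thus differ once that start is removed. In WT, Oas3 had a mean of 0.244 CPM in naive 0 h against 0.404 CPM in naive 2 h. In WT the same shares rest on few counts: 176% for Oas1g (9 and 5 counts), 91.1% for Oas1a (26 and 28 counts), 85.9% for Oas3 (19 and 25 counts), 72.6% for Oas2 (11 and 16 counts), 41.3% for Oas1b (19 and 46 counts) and 30.9% for Oasl2 (28 and 89 counts), while Oasl1 had 0 counts after the wash and 6 in naive 2 h.

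In WT, 3 of 7 genes were higher in pretreated 0 h than in naive 0 h cells, where 12.6% of all genes tested were called higher. Oas1a, with 26 against 3 counts, was 9.28-fold higher with a counting interval of 2.84 to 47.9 (edgeR adjusted p = 0.000381). Oas2, with 11 against 2 counts, was 5.89-fold higher with an interval of 1.28 to 54.7 (edgeR adjusted p = 0.0255), and Oasl2 changed by 1.64 ± 0.52 (edgeR adjusted p = 0.0213). Oas1b (1.36 ± 0.63), Oas3 (0.56 ± 0.61) and Oas1g (ratio 4.82, interval 0.997 to 45.8) did not pass, and Oasl1 had 0 counts in pretreated 0 h and 2 in naive 0 h. Without WT naive 0 h replicate 1 none of the 7 was called (Oas1a 2.95, edgeR adjusted p = 0.0557; Oas2 1.73, edgeR adjusted p = 0.381; Oasl2 0.82, edgeR adjusted p = 0.496). Oas2 was also not called by DESeq2 (2.77, adjusted p = 0.0591) or with no TMM factor (2.42, edgeR adjusted p = 0.0607). Without WT pretreated 0 h replicate 2 neither Oas2 (2.73, edgeR adjusted p = 0.0601) nor Oasl2 (1.28, edgeR adjusted p = 0.202) was called. Without WT pretreated 0 h replicate 1 Oas1b was called (2.02, edgeR adjusted p = 0.0202) and Oas2 was not (2.49, edgeR adjusted p = 0.108). The difference between KO and WT in this change was called by edgeR for 0 of 7 genes, with 1 at an unadjusted p under 0.05, where 3.22% of all genes were called in either direction; DESeq2 called 0 of the 5 to which it gave an adjusted p. It ranged from 0.74 ± 0.77 for Oas1b to 4.88 ± 2.49 for Oasl1. The Oasl1 size depends on the prior count, since WT pretreated 0 h has no Oasl1 counts.

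A second exposure raised the family again in both genotypes. In pretreated KO cells 7 of 7 genes rose at 2 h, where 17.9% of all genes tested were called higher, and in pretreated WT cells 7 of 7 rose, where 12.2% were called higher. The median log2 change was 3.57 in KO and 3.98 in WT, or 3.69 in WT with Oasl1 at its bound. In KO the changes ran from 2.67 ± 0.10 for Oas1a through 3.16 ± 0.10 for Oas2, 3.42 ± 0.09 for Oasl2, 3.57 ± 0.14 for Oas1b, 3.72 ± 0.20 for Oas3 and 4.03 ± 0.22 for Oas1g to 5.47 ± 0.16 for Oasl1. In WT they ran from 2.77 ± 0.42 for Oas1g through 3.27 ± 0.24 for Oas1a, 3.28 ± 0.35 for Oas3, 3.98 ± 0.28 for Oas1b and 4.11 ± 0.22 for Oasl2 to 4.19 ± 0.30 for Oas2, and Oasl1, with 38 against 0 counts, was at least 12.9-fold higher. The highest adjusted p from edgeR was 2.26e-15 in KO and 2.23e-05 in WT. The WT value of Oas1b was 3.34 without WT pretreated 0 h replicate 1 and 5.21 without WT pretreated 0 h replicate 2. The size of this second response was not called different between KO and WT for any of the 7 genes by edgeR, with 2 at an unadjusted p under 0.05, where 9.03% of all genes were called in either direction, and DESeq2 also called 0. Estimates ran from -2.01 ± 1.79 for Oasl1 to 1.26 ± 0.62 for Oas1g. The Oasl1 size depends on the prior count, since WT pretreated 0 h has no Oasl1 counts. Without KO pretreated 0 h replicate 1, Oasl2 was called lower (-0.88, edgeR adjusted p = 0.0461).

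Pretreated cells reached higher Oas levels at 2 h than naive cells did, with Oasl1 in KO as the exception. In KO 6 of 7 genes were higher in pretreated 2 h than in naive 2 h, where 11.2% of all genes tested were called higher. All of these KO changes rest on the single KO naive 2 h library, which could not be left out. Oas1g changed by 1.96 ± 0.23, Oas2 by 1.78 ± 0.12, Oas1a by 1.35 ± 0.12, Oas3 by 1.19 ± 0.20, Oas1b by 0.83 ± 0.13 and Oasl2 by 0.58 ± 0.09 (edgeR adjusted p = 1.88e-05). Oasl1 changed by 0.03 ± 0.11 (edgeR adjusted p = 0.911), and its KO naive 2 h library lay between the 2 KO pretreated 2 h libraries. DESeq2 did not call Oas3 here (1.18, adjusted p = 0.159). In WT 7 of 7 genes were higher in pretreated 2 h than in naive 2 h, where 13.2% of all genes were called higher, with log2 changes of 2.36 ± 0.17 for Oasl2 to 3.57 ± 0.28 for Oas2. WT Oasl1 changed by 2.59 ± 0.61 (edgeR adjusted p = 0.00197), which rests on 38 counts against 6. Without WT naive 2 h replicate 1 it stood at 7.48, with no count left in naive 2 h, Oas3 at 4.49 and Oas2 at 4.22, and without WT naive 2 h replicate 2 Oasl1 stood at 1.89.

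**Figure D3:**
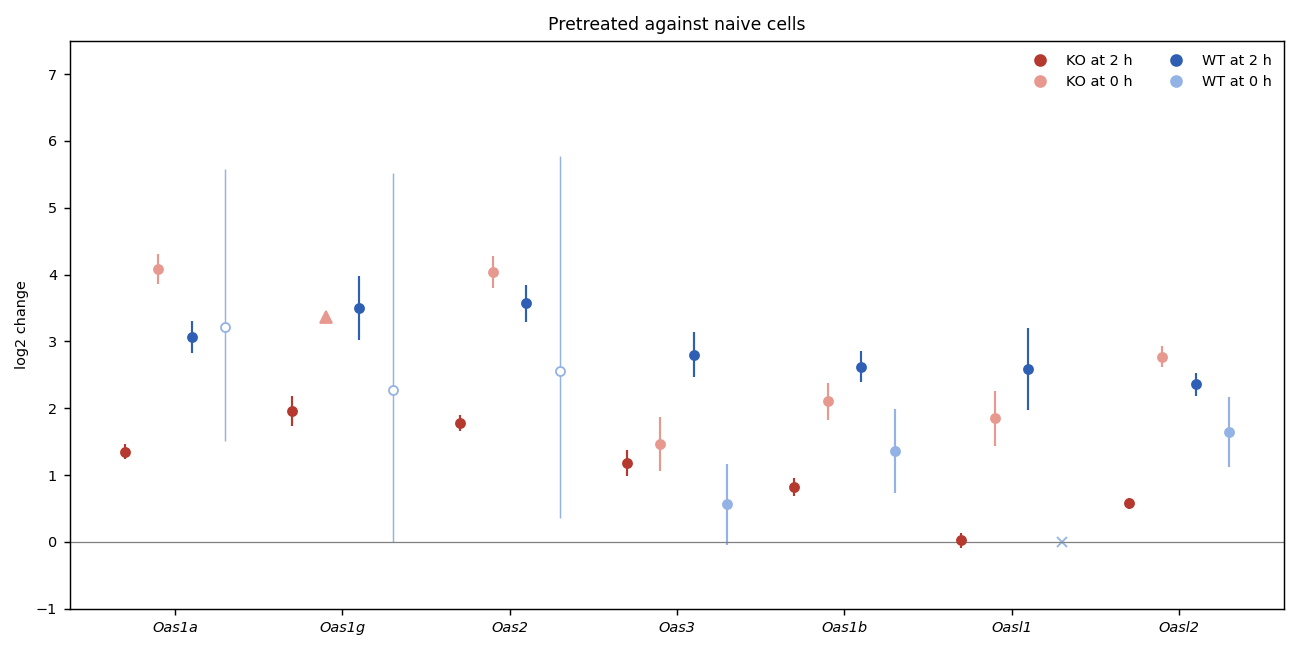
Log2 change of each Oas gene in pretreated against naive cells, at 2 h and at 0 h of interferon beta, in KO and WT. Symbols are as for the change at 2 h, and the cross marks Oasl1 in WT at 0 h, for which both groups hold 3 counts or fewer. In KO the change at 2 h lies below the change at 0 h for every gene, with Oas1g at 0 h drawn as a lower bound. For Oas3 this difference, -0.28 ± 0.46, was not called (edgeR adjusted p = 0.782). For Oasl1 the KO change at 2 h is 0.03.

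Put as fold over its own 0 h level, the second KO response was smaller than the first for 6 of 7 genes, where 2.94% of all genes were called lower. The first KO response rests on the single KO naive 2 h library, which no fit could leave out. The difference was -2.73 ± 0.29 for Oas1a (edgeR adjusted p = 1.23e-07), -2.26 ± 0.31 for Oas2, -2.20 ± 0.19 for Oasl2, -1.82 ± 0.43 for Oasl1 (edgeR adjusted p = 0.00882) and -1.27 ± 0.31 for Oas1b (edgeR adjusted p = 0.0111). Oas1g was also called (edgeR adjusted p = 0.0203), with a size that depends on the prior count, and Oas3 was not (-0.28 ± 0.46, edgeR adjusted p = 0.782). For Oas1a, Oas2, Oas1b and Oasl2 this goes with a higher start and a higher end in pretreated cells, and for Oasl1 with a higher start and an end that differed by 0.03 ± 0.11. Without KO naive 0 h replicate 2, Oas1b (-0.93, edgeR adjusted p = 0.207), Oasl1 (-1.40, edgeR adjusted p = 0.163) and Oas1g (edgeR adjusted p = 0.178) were not called. Oas1g also fell out without KO naive 0 h replicate 1 (edgeR adjusted p = 0.0678), Oas1b without KO pretreated 0 h replicate 1 (-1.06, edgeR adjusted p = 0.0692) and Oasl1 without KO pretreated 0 h replicate 2 (-1.59, edgeR adjusted p = 0.0851). In WT edgeR called 0 of 7 genes in this comparison, with 2 at an unadjusted p under 0.05, where 3.04% of all genes were called in either direction, and DESeq2 called 0. For Oasl1 the size in WT depends on the prior count, since WT pretreated 0 h has no Oasl1 counts. WT estimates ran from -0.25 ± 0.65 for Oas1a to 5.62 ± 2.56 for Oasl1, and Oas3 (2.24 ± 0.75, edgeR adjusted p = 0.121) was called without WT naive 2 h replicate 1 (3.93, edgeR adjusted p = 0.0182).

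KO cells carried more Oas RNA than WT cells in all 4 settings. At pretreated 2 h 7 of 7 genes were higher in KO, where 35.6% of all genes were called higher, with a median log2 change of 3.00 against 0.03. Oasl1 was higher by 5.88 ± 0.18 (edgeR adjusted p = 5.78e-22), Oasl2 by 3.53 ± 0.09, Oas2 by 3.47 ± 0.11, Oas1a by 3.00 ± 0.11, Oas1g by 2.72 ± 0.19, Oas1b by 2.37 ± 0.12 and Oas3 by 1.98 ± 0.17. At pretreated 0 h 7 of 7 were higher in KO, where 32.8% of all genes were called higher. Oas2 was higher by 4.50 ± 0.28, Oasl2 by 4.22 ± 0.21, Oas1a by 3.59 ± 0.23, Oas1b by 2.78 ± 0.33, Oas3 by 1.55 ± 0.44 (edgeR adjusted p = 0.00281) and Oas1g by 1.46 ± 0.49 (edgeR adjusted p = 0.0111), and Oasl1, with 65 against 0 counts, was at least 18.4-fold higher. Oas3 was lost here without KO pretreated 0 h replicate 2 (1.13, edgeR adjusted p = 0.0685). Oas1g was lost without WT pretreated 0 h replicate 1 (1.31, edgeR adjusted p = 0.0741) or KO pretreated 0 h replicate 1 (1.38, edgeR adjusted p = 0.05). Oas1b stood at 2.13 without WT pretreated 0 h replicate 1 and at 4.02 without WT pretreated 0 h replicate 2.

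At naive 2 h 7 of 7 genes were higher in KO than in WT, where 32.3% of all genes were called higher, with a median log2 change of 4.71 against 0.02 for all genes. The KO side here is the single KO naive 2 h library. The order was Oasl1 (8.44 ± 0.26), Oasl2 (5.31 ± 0.14), Oas2 (5.25 ± 0.24), Oas1a (4.71 ± 0.22), Oas1g (4.26 ± 0.48), Oas1b (4.16 ± 0.22) and Oas3 (3.60 ± 0.34, edgeR adjusted p = 1.56e-10). Oasl1 rests on 6 counts in 1 of 2 WT libraries and stood at 7.74 when WT naive 2 h replicate 2 was left out. Leaving out WT naive 2 h replicate 1, which holds those 6 counts, leaves 0 counts in WT, so the fitted size then depends on the prior count. In that fit Oas3 stood at 5.28 and Oas2 at 5.90. At naive 0 h 5 of 7 genes were higher in KO, where 34.3% of all genes were called higher. Oasl2 was higher by 3.09 ± 0.39 (edgeR adjusted p = 5.04e-08) and Oas1b by 2.04 ± 0.53 (edgeR adjusted p = 0.00134). By summed counts Oas2 was 8.71-fold higher (interval 2.10 to 77.1, 19 against 2 counts, edgeR adjusted p = 0.000783), Oasl1 8.25-fold (1.98 to 73.3, 18 against 2 counts, edgeR adjusted p = 0.00564) and Oas1a 7.03-fold (2.12 to 36.6, 23 against 3 counts, edgeR adjusted p = 0.000703). Oas3 was not called (0.64 ± 0.57, edgeR adjusted p = 0.327), and Oas1g had 0 and 2 counts, for which no fold is given. Without WT naive 0 h replicate 1 Oasl2 alone was called (2.27, edgeR adjusted p = 0.00107); Oas1a stood at 2.46 (edgeR adjusted p = 0.0596), Oas2 at 2.19 (edgeR adjusted p = 0.0919), Oasl1 at 1.16 (edgeR adjusted p = 0.357) and Oas1b at 0.94 (edgeR adjusted p = 0.25). Without WT naive 0 h replicate 2 Oas1b stood at 2.77 and Oasl1 at 6.08.

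The make-up of the family at 2 h differed between libraries in several genes, Oasl1 among them. Of all counts in the 7 genes, Oasl1 made up 26.0% in the KO naive 2 h library (exact 95% interval 24.7% to 27.4%) and 14.6% and 16.8% in the KO pretreated 2 h libraries. It made up 2.65% and 2.51% in the WT pretreated 2 h libraries and 4.17% in WT naive 2 h replicate 1. WT naive 2 h replicate 2 had 0 of 71 counts, with an exact 95% interval that reaches 5.06%. Oas3 had 5.26% and 4.53% in KO pretreated and 3.67% in KO naive 2 h, against 13.4% and 10.8% in WT pretreated and 15.3% and 4.23% in WT naive 2 h libraries. Oasl2 was the most counted gene in every 2 h library, with 37.3% and 38.0% in KO pretreated, 42.8% in KO naive, 29.1% and 34.7% in WT pretreated, and 37.5% and 49.3% in WT naive cells. Oas2 had 15.9% and 14.3% in KO pretreated 2 h against 7.45% in KO naive 2 h, and Oas1a 13.8% and 13.0% against 8.92%. The truncated Oas1b took 10.4% and 10.5% in KO pretreated and 9.96% in KO naive 2 h, against 19.4% and 19.9% in WT pretreated and 20.8% and 22.5% in WT naive 2 h libraries.

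**Figure D4:**
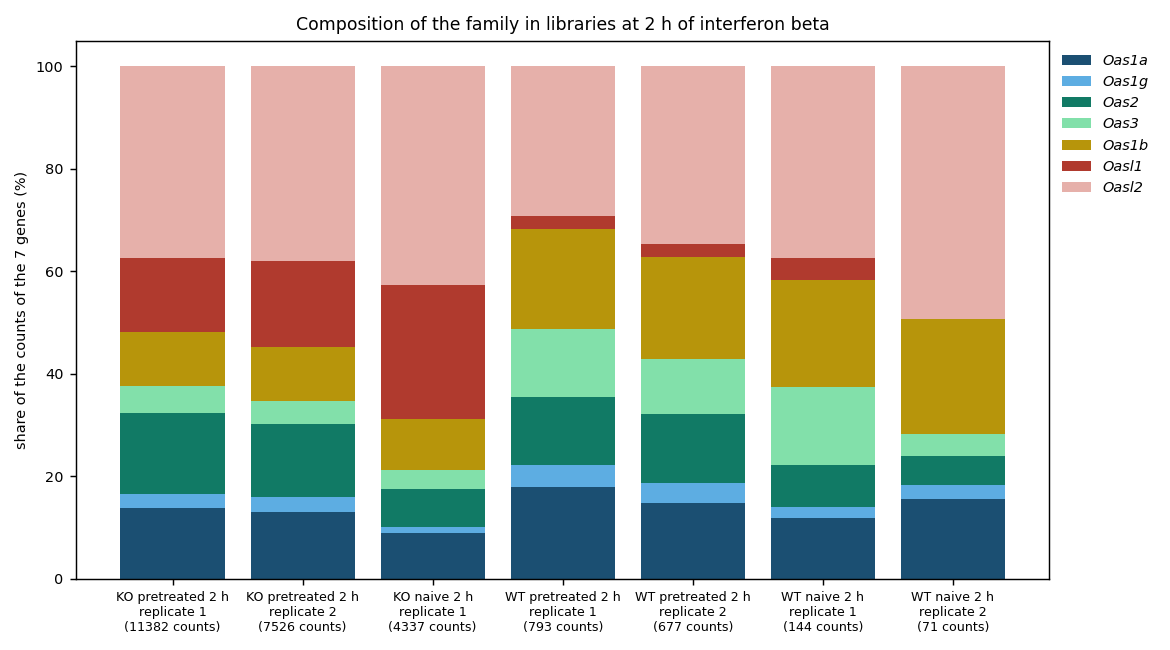
Share (%) of the counts of the 7 Oas genes held by each gene in the 7 libraries taken at 2 h, with the summed counts of each library under its bar. The Oasl1 segment spans 26.0% in KO naive 2 h and 2.65% or less in the WT pretreated 2 h libraries.

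On a scale per length, with CPM divided by kilobases of GENCODE M21 exons, the order of levels changed with treatment in KO cells. In KO naive 2 h it was Oasl1 (14.8), Oasl2 (9.96), Oas1b (7.43), Oas1a (7.03), Oas2 (2.48), Oas3 (0.770) and Oas1g (0.761 CPM per kilobase). In KO pretreated 2 h it was Oas1a (18.4), Oasl1 (15.6), Oasl2 (15.3), Oas1b (13.5), Oas2 (8.76), Oas1g (3.05) and Oas3 (1.79 CPM per kilobase). The annotation used for counting is not given in the sources used here, so these lengths may differ from those counted. Oas1a and Oas1g also share much of their exon sequence, and reads that align to several places are summed apart from the genes. Their levels per length may thus be too low beside the other genes, and their places in these orders are uncertain. Both orders use group means, and KO naive 2 h is a single library, so places are also uncertain where values lie close. Oasl1 and Oasl2 lie close in KO pretreated 2 h, and Oas3 and Oas1g in KO naive 2 h.

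Other members of the family and genes of the oligoadenylate pathway were then read in the same fits. Oas1c, a further Oas1 copy, had 11.3 and 11.5 CPM in KO pretreated 2 h, 2.28 and 3.04 CPM in KO pretreated 0 h, 7.02 CPM in KO naive 2 h, and 1.0 and 1.32 CPM in KO naive 0 h, against 1.86 and 2.30, 0.553 and 0.432, 0.181 and 0.664, and 0.312 and 0.175 CPM in the same 4 WT groups. It rose in naive KO cells by 2.76 ± 0.23 (edgeR adjusted p = 4.74e-11), changed by 0.73 ± 0.54 in naive WT cells (edgeR adjusted p = 0.332), and the difference of 2.03 ± 0.63 was called (edgeR adjusted p = 0.0251). It was higher in KO in all 4 settings, by 2.24 ± 0.40 to 4.27 ± 0.30. The other 4 copies, Oas1d, Oas1e, Oas1f and Oas1h, did not pass the filter on low counts and were not tested.

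Of 3 genes listed for the oligoadenylate pathway, 1 rose in naive KO cells, where 19.1% of all genes tested were called higher, and 1 in naive WT cells, where 15% were. In both cases it was Abce1, also known as a ribosome recycling factor (0.24 ± 0.05 in KO and 0.11 ± 0.04 in WT). All 3 were lower in KO than in WT at naive 0 h, where 32.7% of all genes tested were called lower, with -0.51 ± 0.04 for Abce1, -0.38 ± 0.11 for Akap7 and -0.20 ± 0.07 for Pde12. Pde12 and Akap7, whose products degrade oligoadenylates, were not called in either naive response; Pde12 had 0.03 ± 0.09 in KO and 0.14 ± 0.07 in WT, and Akap7 0.20 ± 0.14 in KO and -0.27 ± 0.11 in WT.

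Other interferon-induced sensors and effectors of double-stranded RNA changed alongside the family. Of 8 tested, 7 rose and 1 fell in naive KO cells, where 19.1% of all genes tested were called higher and 17.2% lower. In naive WT cells 7 rose and 1 fell, where 15% were called higher, and the share called lower is not reported here. Median log2 changes were 4.13 in KO and 1.40 in WT. The gene that fell in both was Mavs, the adaptor of MDA5 and RIG-I, by -0.54 ± 0.10 in KO and -0.27 ± 0.08 in WT. The change was larger in KO for 6 of 8, where 8.46% of all genes were called in that direction, and smaller for 0. Ifih1, the sensor MDA5, rose by 5.52 ± 0.11 in naive KO and 2.06 ± 0.21 in naive WT cells, and Dhx58, the regulator LGP2, by 4.52 ± 0.15 and 1.81 ± 0.29. Eif2ak2, the kinase PKR, rose by 2.80 ± 0.06 in naive KO and 1.04 ± 0.05 in naive WT cells.

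Of 10 genes of the interferon receptor and its signalling, 7 rose in naive KO cells, where 19.1% of all genes tested were called higher, 6 in naive WT cells, where 15% were, and none fell in either. The change was larger in KO for 6, where 8.46% of all genes were called in that direction. It was smaller for 1, Irf9, whose response was lower in KO by -0.55 ± 0.12 (edgeR adjusted p = 0.00198). The share of all genes with a smaller response in KO is not reported here. Irf9 nevertheless stood higher in KO at naive 0 h by 1.98 ± 0.10. Stat2 rose by 3.26 ± 0.07 in naive KO and 2.29 ± 0.08 in naive WT cells. Irf7, whose translation Oasl1 represses, rose by 5.53 ± 0.10 in naive KO and 4.22 ± 0.17 in naive WT cells, a difference of 1.31 ± 0.29 (edgeR adjusted p = 0.00184). Unlike Oasl1 it was readily counted in WT, at 36.9 and 31.2 CPM in pretreated 2 h and 8.34 and 8.35 CPM in naive 2 h libraries. The receptor gene Ifnar1 was higher in KO in all 4 settings, by 0.66 ± 0.05 to 0.93 ± 0.06, and Ifnar2 by 0.21 ± 0.08 to 0.51 ± 0.09.

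The 7 genes followed much the same course over the 8 groups. Pearson's r of each with the mean standardised profile of the 7, over 8 group means of log2 CPM, was 0.950 for Oasl1 and 0.963 for Oas1g and ran up to 0.992 for Oas1b; pairs ranged from 0.867 for Oas1g and Oasl1 to 0.994 for Oas1a and Oas2. Outside the family the 8 genes of highest r were Ifih1 (0.994), Phf11b (0.992), Rtp4 (0.990), Dhx58 (0.990), Trim30a (0.989), Ddx60 (0.988), Irf5 (0.986) and Ifi204 (0.986). These are descriptions over 8 means that share libraries and treatments. Of them, Ddx60 and Phf11b rose in naive KO cells by 6.41 and 6.13 and were not called in naive WT cells (1.17, edgeR adjusted p = 0.187, and 1.74, edgeR adjusted p = 0.195).

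The Oas genes sit in a pair of runs on chromosome 5, Oasl2 and Oasl1 in one and Oas2 to Oas1a, with the Oas1 copies, in the other. Of 20 tested neighbours, 5 on each side of each run, 2 rose and 5 fell in naive KO cells, where 19.1% of all genes tested were called higher and 17.2% lower, and 1 of these moved by 1 log2 unit or more. That gene was Trafd1, an interferon-induced regulator of innate signalling beyond the Oas1a end, which rose by 1.23 ± 0.08 in naive KO cells (edgeR adjusted p = 5.18e-13) and by 1.83 ± 0.07 in pretreated KO cells, with differences from WT of 1.43 ± 0.12 and 1.60 ± 0.11. Between KO and WT, 2610524H06Rik, next to Oasl2, was higher in KO in all 4 settings, by 1.40 ± 0.24 to 2.33 ± 0.28. The remaining neighbours stayed under 1 log2 unit in every called comparison except Iqcd, which was lower by -1.35 ± 0.47 in KO pretreated 0 h against KO naive 0 h (edgeR adjusted p = 0.0368).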

How the data were processed

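Total RNA for the 15 libraries was extracted with TRIzol, prepared for sequencing with the Ovation SP Ultralow system of NuGEN and read as paired ends on a HiSeq2000, per the labels' protocols. Per the submitters' processing notes, the tools were bcl2fastq 2.15, STAR 2.5.2b and HTSeq with build mm9. No source used here gives the annotation, strand setting or filters, so reads of a gene and of an antisense partner cannot be told apart. The authors deposited whole-number read counts per gene, one table a library, with 5 summary lines that name no gene. Library sizes and tests do not include these lines; reads in no feature made up 35.1% to 41.3% of those assigned to a gene, to none or to several.

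From these counts, CPM were computed by scaling to the gene counts of each library. One model over the 8 groups and 15 libraries (7 residual degrees of freedom) was fitted with edgeR 4.0.16 in R 4.3.3 by quasi-likelihood, after filterByExpr with a minimum count of 10 and TMM scaling (factors 0.895 to 1.22). In all 17 comparisons p-values were adjusted by Benjamini-Hochberg over 13802 genes and called under 0.05. Exact intervals are at 95% (scipy 1.17.1), and a group at 0 counts was given a floor of 3 counts. Other settings were DESeq2 1.42.0, other scaling, no filter, other sets of libraries and each library left out. The scripts were tested on simulated data. The Oas genes and lists were chosen with earlier results of these data known. Genes named outside the family were the members of those lists, the 8 genes of highest r with the family profile and the 5 tested neighbours on each side of each Oas run. Replicate numbers were not used to pair the libraries, since the correlation of same-numbered deviations was -0.02 to 0.06 over 21 pairs of groups. Such low values, taken over all genes tested, cannot show that no batch was shared. Libraries of a group differed by more than counting noise (chi-square over its degrees of freedom, 1.93 to 4.81), so none was counted as a repeat. This does not show that they stem from different animals or cultures. Promoter windows are RefSeq's for GRCm38.p6, and exon lengths and gene order are from GENCODE M21 (GRCm38); no coordinate was converted from mm9. Results on some genes are not reported here.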

Additional observations from a re-analysis of the deposited data

Results flagged for a closer look

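The change of 3 Oas genes at 2 h of interferon beta in naive cells was larger in KO than in WT by a direct test of the difference. Oas3 differed by 2.96 ± 0.74 on the log2 scale (edgeR adjusted p = 0.00541), higher in the 1 KO library than in each of 2 WT libraries at 2 h. Oasl2 differed by 2.22 ± 0.64 (edgeR adjusted p = 0.015). Oas1g differed by a fitted 7.28 ± 2.08 (edgeR adjusted p = 0.0152), a size that depends on the prior count because KO naive 0 h has no Oas1g counts. All 3 share the single KO naive 2 h library, and none kept its call in every fit that left out a library.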

How the results depend on the processing

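Over 119 single-gene values in 17 comparisons, 32 changed their call or sign under some setting, 7 of them uncalled values that changed sign; no called value changed sign. The number of Oas genes called was the same in every fit that left out a library for 8 of 17 comparisons, among them the first response in KO, restimulation in both genotypes, and the genotype comparison at naive 2 h and pretreated 2 h. With libraries left out in turn it ran from 2 to 5 for the first WT response, 2 to 4 for its difference from KO, 5 to 7 for pretreated against naive KO cells at 0 h, 0 to 3 for the same in WT, 3 to 6 for the second against the first KO response, 0 to 1 for the same in WT and for the restimulation difference, 1 to 5 for KO set against WT at naive 0 h and 6 to 7 at pretreated 0 h. Without the 3 libraries low in Rn45s and Lars2 it was 2 for the first WT response, 1 for pretreated against naive WT cells and 2 for KO set against WT at naive 0 h. The difference in the first response was called for 5 genes with no TMM factor, with no filter on low counts, by DESeq2, and with only the groups compared, and the second against the first WT response for 1 gene with no TMM factor or no filter. The shares of all genes called under these settings are not given here. A higher count of Oas genes may thus go with more calls among all genes. With the replicate number as a block, 16 of 17 counts were the same and the difference in the first response was called for 4 genes (Oasl1 5.58, edgeR adjusted p = 0.046). DESeq2 gave an adjusted p for 1 of 7 genes in the second against the first KO response.

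Uncalled values that changed sign were Oasl1 in KO at 2 h, pretreated against naive (-0.062 with the replicate block and -0.069 to 0.12 with libraries left out), and Oas3 in the second against the first KO response (0.13 without the 3 low libraries and -0.79 to 0.30 with libraries left out). In the second against the first WT response they were Oas1g (-1.88 without the 3 low libraries and -1.80 to 1.54 with libraries left out) and Oas1a (0.10 with Oas1a and Oas1g added together and -0.64 to 0.29 with libraries left out). In the first WT response they were Oas3 (-0.64 to 1.58) and Oasl1 (-3.03 to 4.93), and in the restimulation difference Oas1b (-1.65 to 0.22), with libraries left out. The cause of these changes was not tested. The KO naive 2 h group has 1 library and could not be left out. WT values at 0 h rest on few counts and limit every fold against them.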
